A study of Xenopus tropicalis with 9 samples.

Results

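The genes described are 10 blood and vessel genes of the frog Xenopus tropicalis, taken by symbol from a table of 15288 genes. They are the transcription factor genes gata1, gata2, tal1, lmo2, runx1 and fli1, the heme enzyme gene alas2, and the globin genes hba1, hba3 and hbg1. All 10 symbols were in the table. The study sequenced RNA of oocytes and whole embryos in 9 libraries to follow maternal and embryonic transcripts through early development. PolyA+ RNA, selected on oligo(dT) beads, covered the stage VI oocyte, the blastula at stage 6 (early) and at stage 9 (late), the gastrula (stage 12), the neurula (stage 16) and the early larva (stage 30). Total RNA depleted of ribosomal RNA (RiboZero, RZ) covered the oocyte, stage 6 and stage 9. Oocytes were freed from ovarian follicles with collagenase, embryos came from in vitro fertilization, and no treatment or genotype was compared. Each library held pooled RNA of 3 biological replicates, so each condition had a single library, the error between replicates is unknown, and no test is given.

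In vertebrate embryos the first red cells and the first vessels arise close together in the mesoderm, and in Xenopus the earliest red cells form in the ventral blood island. Gata2, Tal1, Lmo2 and Fli1 act in the shared precursors, Lmo2 being an adaptor that joins Tal1 to GATA proteins on DNA. Gata1 directs red cell maturation, in which Alas2 starts heme synthesis and heme is joined to alpha and beta globin chains. Runx1 is required for the later, definitive blood lineages.

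Values are RPKM, read numbers divided by the length of the exons and by the mapped reads of the library, so levels of different genes can be set side by side per length. The read total by which the RPKM of a library were divided, worked out from the values, ranged from 13422643 (polyA+ stage 9) to 44490754 (polyA+ stage 6). The highest total exceeds the aligned reads that the paper's read numbers and aligned share allow. These totals therefore need not be mapped reads. At these depths 3 reads on 1 kb, used here as the floor, were worth between 0.0674 RPKM at stage 6 and 0.224 RPKM at stage 9. The number of reads behind a gene's own value is not known, because the authors averaged over exons. As a check of the samples, the muscle gene actc1 stood at 27.5, 507.4 and 1065 RPKM at stages 12, 16 and 30, and the muscle myosin gene myh4 at 0.00287, 77.1 and 194 RPKM. At stage 9 they had 13.3 and 1.14 RPKM, so myh4 was higher there than at stage 12. The source of its stage 9 value was not tested. The erythroid membrane gene slc4a1 (band 3) had 2.54 RPKM in the polyA+ oocyte and 1.02, 3.91 and 3.39 RPKM at stages 12, 16 and 30, and so did not set the larva apart.

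Little RNA of these genes was present before gastrulation, and they then appeared in an order. Of the 60 values of the 10 genes in the 6 oocyte, stage 6 and stage 9 libraries, 51 were under the floor, 26 of them listed at 0. Of all 15288 genes, between 11789 (RZ stage 6) and 12812 (polyA+ oocyte) were above 0 in each of these libraries. The number of the 10 genes at 1 RPKM or more was 2 at stage 12, 5 at stage 16 and 10 at stage 30. The median of all genes was above 1 RPKM at each of these stages, so most of all genes reached this level at each. The counts of 2 and 5 at stages 12 and 16 were therefore not above the share of all genes. Gata2 was highest at stage 12, lmo2 and runx1 were highest at stage 16, and the other 7 genes were highest at stage 30. Among the 12237 genes that reached 1 RPKM in a polyA+ library, 4.49% were highest at stage 12, 15.3% at stage 16 and 22.2% at stage 30. The median of the 10 genes was 0.0958 RPKM at stage 12, 1.74 RPKM at stage 16 and 3.94 RPKM at stage 30, against 1.62, 3.08 and 3.37 RPKM for all genes. In whole embryos, more cells of a type and more RNA per cell cannot be told apart.

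**Figure D1:**
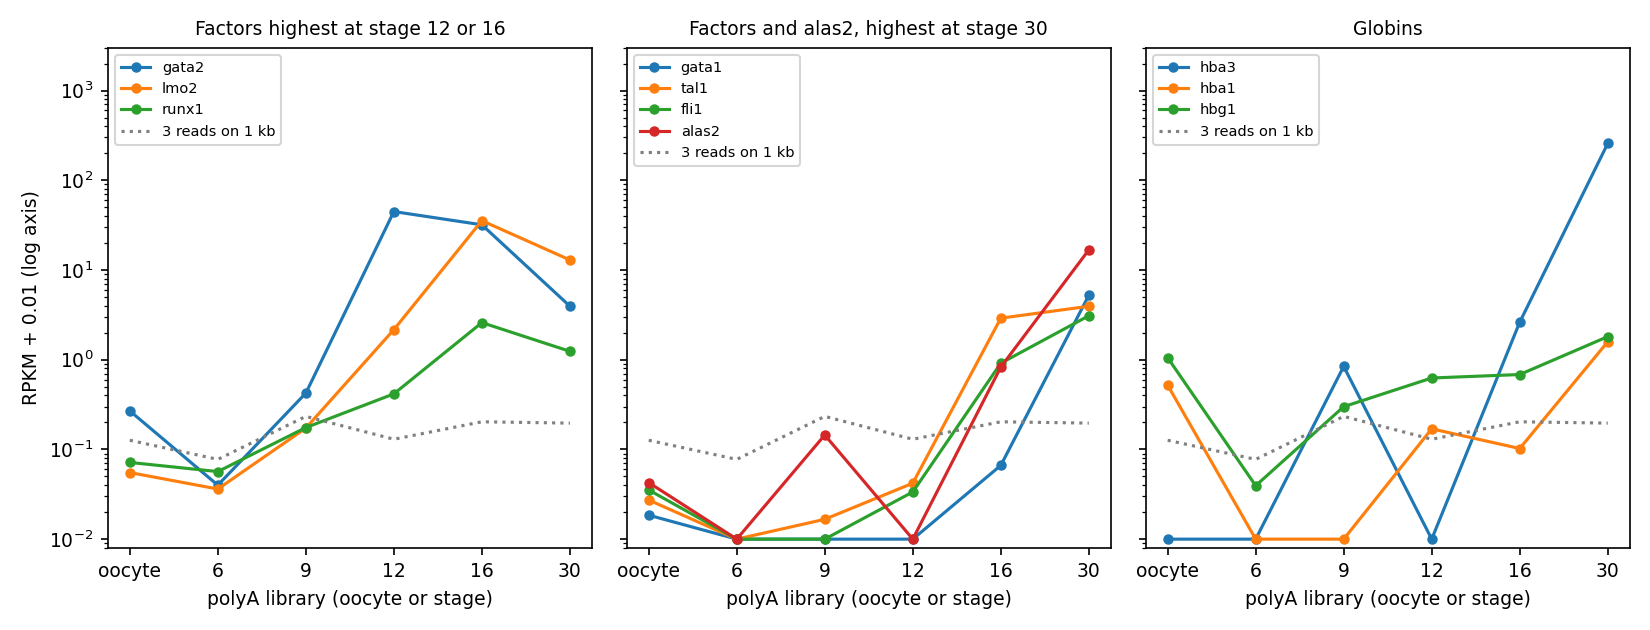
PolyA+ RPKM of the 10 genes on a log axis, with 0.01 added so that values of 0 can be drawn, for the oocyte and stages 6 to 30, 1 library per point. The dotted line is the RPKM of 3 reads on 1 kb in each library. Gata2 peaks at 44.8 RPKM at stage 12, lmo2 at 35.4 RPKM at stage 16, and hba3 reaches 257.3 RPKM at stage 30.

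Between stages 9 and 12 the factor genes gata2 and lmo2 came up. By the rule used throughout, a gene counted as higher when it was at least 4-fold higher in the later library and at least 1 RPKM there. From stage 9 to stage 12, 2 of the 10 genes were higher, against 6.07% of all genes. Lower was counted with the directions exchanged. With 0 of the 10 genes at 1 RPKM at stage 9, none could count as lower. The median log2 change of all genes above 0 in both libraries was -1.22 for this step as deposited and 0.15 with each library scaled to its median over genes expressed in all polyA+ libraries.

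Gata2 encodes a zinc finger factor of blood precursors that in Xenopus is also expressed in ventral ectoderm. Its gene lies on scaffold 4 at 120142980-120187429 of the JGI assembly. In polyA+ RNA it had 0.259, 0.0299 and 0.414 RPKM in the oocyte and the early and late blastula, 44.8 RPKM in the gastrula, 31.9 RPKM in the neurula and 3.94 RPKM in the larva. The stage 12 level was 108-fold that of stage 9. Its log2 change of 6.76 exceeded those of 99.2% of genes above 0 in both libraries, and was 8.13 with median scaling. Stages 12 and 16 held 55.1% and 39.2% of the RPKM summed over the 6 polyA+ libraries. The stage 30 level was 8.09-fold lower than at stage 16 and 11.4-fold lower than at stage 12. The epidermal keratin gene krt was also lower at stage 30, with 407.6, 1591 and 147.0 RPKM at stages 12, 16 and 30, and the part of such cells in the gata2 values was not tested. In RZ RNA gata2 had 0.0203, 0.00662 and 0.0875 RPKM in the oocyte and at stages 6 and 9, all under the floor.

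Lmo2 (scaffold 4, 8260092-8262757) came up at the same step but had its highest level at stage 16, the stage after that of gata2. It had 0.0452, 0.0262 and 0.163 RPKM in the polyA+ oocyte and at stages 6 and 9, then 2.15, 35.4 and 12.9 RPKM at stages 12, 16 and 30. All 3 RZ libraries listed it at 0. Its level at stage 16 was 16.5-fold that of stage 12, and the stage 30 level was 2.74-fold lower than that. At stage 16 lmo2 had the highest RPKM of the 10 genes, with gata2 next at 31.9 RPKM. No replicate spread is available to place these levels in a firm order.

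The other GATA family genes, which act in endoderm, heart, neural tissue and ectoderm, can be set beside gata2. From stage 9 to stage 12, 5 of the 6 GATA genes were higher by the rule, against 6.07% of all genes (11.5% with libraries scaled to the median). Gata3 went from 0.304 to 29.5 RPKM, gata4 from 0.380 to 33.5 RPKM, and gata6 from 0.136 to 45.6 RPKM. Gata6 and gata2 were thus the most abundant family members at stage 12. Gata5 went from 0.593 to 6.58 RPKM and was highest at stage 16, with 15.9 RPKM. From stage 16 to stage 30 the levels of gata3, gata4, gata5 and gata6 were 3.58-fold, 2.98-fold, 1.79-fold and 3.50-fold lower, all short of the 4-fold rule, which gata2 met. Gata1 alone in the family was higher at stage 30 than at stage 16. At stage 30 the 6 genes lay between 3.94 RPKM (gata2) and 8.84 RPKM (gata5), with gata1 at 5.22 RPKM.

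**Figure D2:**
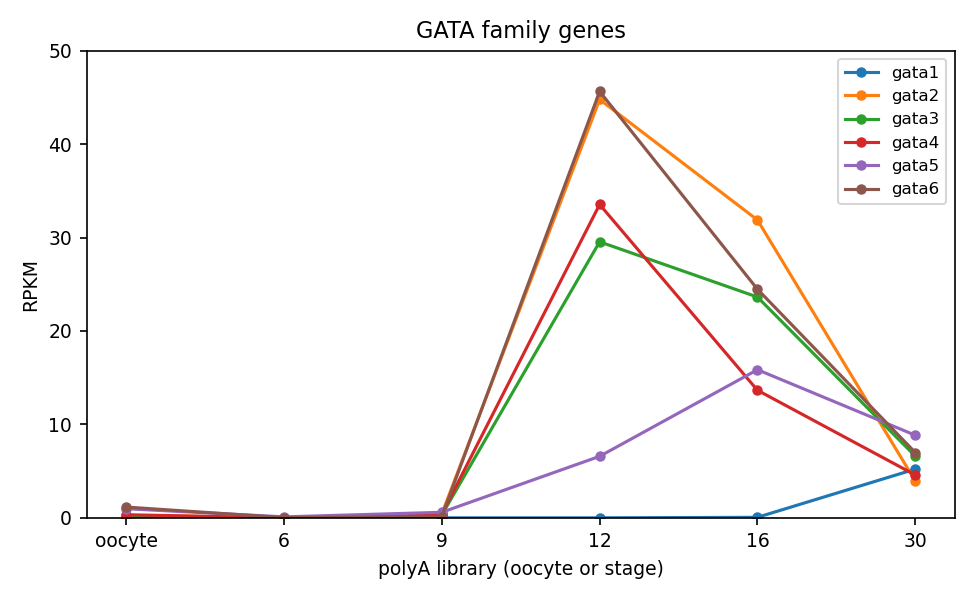
PolyA+ RPKM of the 6 GATA genes in the oocyte and at stages 6 to 30, on a linear axis, 1 library per point. Gata2, gata3, gata4 and gata6 peak at stage 12 and gata5 at stage 16, whereas gata1 is under 0.1 RPKM up to stage 16 and 5.22 RPKM at stage 30.

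From gastrula to neurula the genes tal1, runx1 and hba3 passed 1 RPKM and lmo2 went further up. By the rule 4 of the 10 genes were higher at stage 16 than at stage 12, against 12.3% of all genes. Only gata2 and lmo2 had 1 RPKM at stage 12 and so could count as lower, and neither did. Gata2 had a log2 change of -0.49. The median change of log2(RPKM + 1) was 0.88 over the 10 genes and 0.18 over all genes.

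Tal1 (scaffold 4, 103804290-103816117), also called Scl, encodes a basic helix-loop-helix factor needed for all blood lineages. It had 0.0173, 0, 0.00663 and 0.0320 RPKM in the polyA+ oocyte and at stages 6, 9 and 12, all under the floor. It then had 2.89 RPKM at stage 16 and 3.93 RPKM at stage 30. The RZ libraries gave 0, 0.00398 and 0 RPKM. Tal1 therefore came up between stages 12 and 16 and showed little difference after that. Its log2 change from stage 16 to stage 30 was 0.44 as deposited and -0.07 with the libraries scaled to equal summed RPKM, so its direction was not fixed.

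Runx1 (scaffold 2, 127183492-127253990), the DNA-binding partner of Cbfb, was the lowest of the factor genes at stage 30. Its polyA+ values were 0.0616, 0.0466 and 0.165 RPKM in the oocyte and at stages 6 and 9, and 0.406, 2.58 and 1.23 RPKM at stages 12, 16 and 30. The RZ values were 0.00622, 0.0848 and 0 RPKM. Stage 16 was 6.35-fold above stage 12 and held 57.5% of its summed polyA+ RPKM. Stage 30 was 2.10-fold lower than stage 16. The related runx2 and runx3 did not exceed 0.282 and 0.109 RPKM in any polyA+ library. Cbfb had 20.3 RPKM in the polyA+ oocyte and 13.6, 14.4, 7.44 and 14.7 RPKM at stages 9, 12, 16 and 30.

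Fli1 (scaffold 7, 87379223-87437032) encodes an ETS factor of vessel and blood precursors. It had 0.0253, 0, 0 and 0.0236 RPKM in the polyA+ oocyte and at stages 6, 9 and 12, then 0.905 RPKM at stage 16 and 3.08 RPKM at stage 30. The RZ values were 0.0675, 0 and 0.0193 RPKM. Its stage 16 value was above the floor of 0.193 RPKM but under 1 RPKM, so the rule did not count it. Stage 30 was 3.41-fold above stage 16, also short of 4-fold. The neighbouring gene on the scaffold, the ETS gene ets1, had another course. It had 12.2 RPKM in the polyA+ oocyte and 35.8, 7.52, 14.8 and 5.84 RPKM at stages 9, 12, 16 and 30. Like fli1 it was higher at stage 16 than at stage 12, by 1.96-fold.

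Some of the known protein partners of these factors came up at the same steps. Of 14 listed partners of Gata1, Tal1, Lmo2 and Runx1, 13 were in the table. From stage 12 to stage 16, 4 were higher by the rule and 0 lower, which is 30.8% of the list beside 12.3% of all genes higher. These were the GATA cofactor gene zfpm1 (0.252 to 1.37 RPKM), nfe2 (0.00537 to 1.07 RPKM), gfi1b (0.317 to 1.80 RPKM) and gfi1 (0.180 to 2.33 RPKM). Zfpm1 did not first appear at this step. It had 1.21 RPKM in the polyA+ oocyte and 4.37 RPKM at stage 9, and was lower by the rule from stage 9 to stage 12. From stage 16 to stage 30 only 2 were higher (15.4%, beside 7.92% of all genes). They were bcl11a (0.139 to 1.40 RPKM) and ldb1, which encodes the protein that binds Lmo2 (0 to 1.74 RPKM). Apart from stage 30, this ldb1 entry was above 0 only in the polyA+ oocyte (0.0336 RPKM). Whether this entry is the main ldb1 gene was not examined. The most abundant listed partner at stage 30 was tcf3, by its symbol an E protein gene, with 40.7, 43.6 and 42.7 RPKM at stages 12, 16 and 30. The paper describes tcf3 as a helix-loop-helix factor gene and gives it a role in repressing Wnt targets. Whether this entry is the E protein gene was not examined. The RNA of this entry was already present in the gastrula library, when tal1 was under the floor.

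From neurula to early larva gata1, alas2 and the alpha globin genes came up while gata2 went down. By the rule 4 of the 10 genes, gata1, alas2, hba1 and hba3, were higher at stage 30 than at stage 16, against 7.92% of all genes. Only gata2 was lower by the rule, against 3.77% of all genes. Lists of other cell types also had higher genes at this step, 6 of 14 myeloid and thrombocyte genes (42.9%) and 7 of 30 vessel genes (23.3%). The median change of log2(RPKM + 1) was 0.92 over the 10 genes and 0.08 over all genes. The 4 calls stood when stage 16 values under the floor were raised to it. Scaling to equal summed RPKM lowered every log2 change of this step by 0.51 and scaling to the median by 0.09, and turned the direction of tal1 only among the 10 genes.

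**Figure D3:**
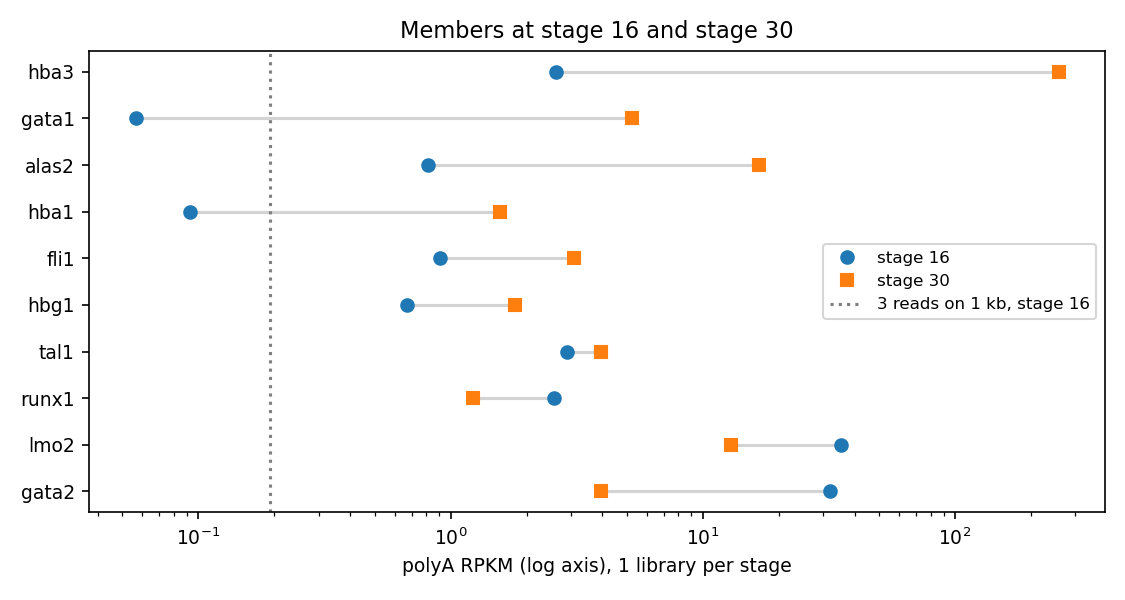
PolyA+ RPKM of the 10 genes at stage 16 (circles) and stage 30 (squares) on a log axis, ordered by their ratio, 1 library per point. The dotted line is the RPKM of 3 reads on 1 kb at stage 16. Gata1 and hba1 lie left of it at stage 16, and runx1, lmo2 and gata2 are lower at stage 30.

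Gata1 encodes the zinc finger factor that activates alas2 and globin genes in red cell precursors. It is the only gene of the table on scaffold 1542, at 1645-7052. It had 0.00849 RPKM in the polyA+ oocyte, 0 at stages 6, 9 and 12, and 0.0564 and 5.22 RPKM at stages 16 and 30. It was listed at 0 in all RZ libraries. The stage 16 value corresponds to 0.875 reads per kb and the stage 30 value to 84.0 reads per kb. Gata1 was thus at or under the floor in 8 of the 9 libraries, and stage 30 held 98.8% of its summed polyA+ RPKM. Where gata2 stood far above gata1 at stages 12 and 16, both were at similar levels at stage 30, 3.94 and 5.22 RPKM.

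Alas2 (scaffold 8, 9772897-9784040) encodes the red cell form of the enzyme that makes aminolevulinic acid, the first step of heme synthesis. It had 0.0327, 0, 0.135 and 0 RPKM in the polyA+ oocyte and at stages 6, 9 and 12, then 0.817 RPKM at stage 16 and 16.7 RPKM at stage 30. The RZ values were 0, 0 and 0.0432 RPKM. Stage 30 was 20.5-fold above stage 16 and held 94.4% of the summed polyA+ RPKM. The housekeeping form, alas1, had 20.1 RPKM in the polyA+ oocyte and 21.8 and 9.26 RPKM at stages 16 and 30. At stage 30 alas2 was therefore the more abundant of the pair, and at stage 16 alas1 was.

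The 9 heme synthesis genes were all in the table. From stage 16 to stage 30, 4 were higher by the rule and 0 lower, which is 44.4% beside 7.92% of all genes higher and 3.77% lower. The list's median change of log2(RPKM + 1) was 1.18, against 0.08 over all genes. Beside alas2 these were hmbs (0.0759 to 1.19 RPKM), uros (0.541 to 2.48 RPKM) and urod (1.82 to 14.9 RPKM), which encode the middle steps from porphobilinogen to coproporphyrinogen. The remaining genes of the list did not meet the rule. Alad went from 8.10 to 21.1 RPKM, cpox from 13.9 to 26.9 RPKM, and fech, which inserts the iron, from 6.67 to 19.8 RPKM. Ppox alone with alas1 had a lower level at stage 30, 1.92 against 2.92 RPKM. With the libraries scaled to equal summed RPKM, 2 genes of the list met the rule, beside 4.53% of all genes. From the oocyte to stage 30 alas2 was the only one of the 9 genes to meet it, since the others had between 4.18 RPKM (hmbs) and 20.1 RPKM (alas1) in the polyA+ oocyte.

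**Figure D4:**
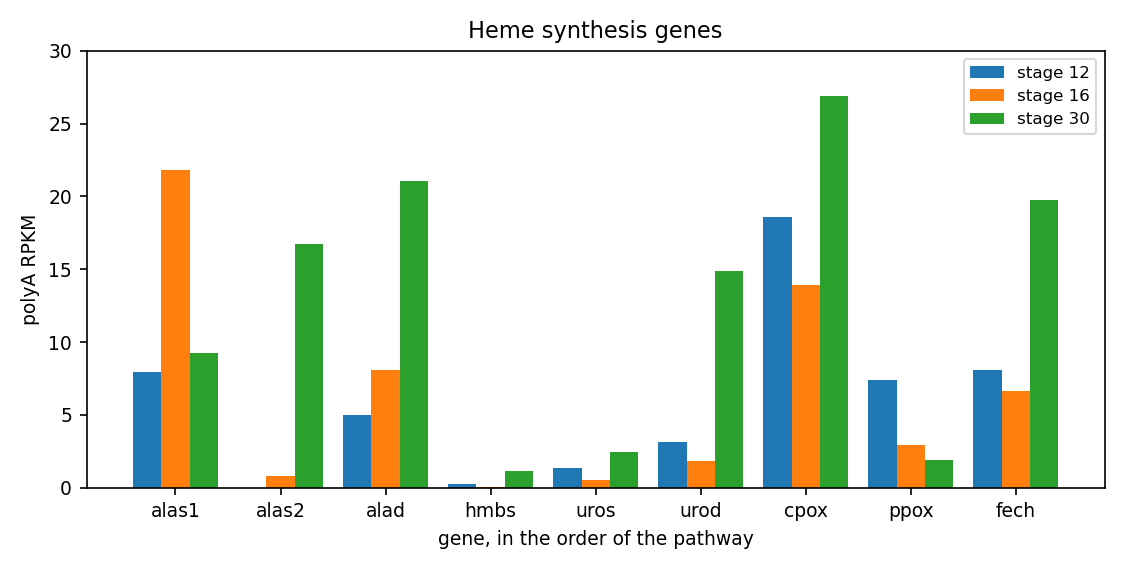
PolyA+ RPKM of the 9 heme synthesis genes at stages 12, 16 and 30, in the order of the pathway with alas1 and alas2 for the first step, 1 library per bar. Alas2 goes from 0 at stage 12 to 16.7 RPKM at stage 30, and alas1 and ppox are the genes with lower bars at stage 30 than at stage 16.

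The 3 globin genes differed widely in level although they are neighbours. All lie on the plus strand of scaffold 9, hba3 at 60089873-60094340, hba1 at 60106488-60108003 and hbg1 at 60116684-60118391. Reads that mapped to several places were left out by the authors, so reads shared by near-identical globin copies are not in these values and the levels of single copies are uncertain.

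Hba3, an alpha globin gene by its symbol, had 0, 0, 0.833, 0 and 2.61 RPKM in the polyA+ oocyte and at stages 6, 9, 12 and 16. At stage 30 it had 257.3 RPKM, 98.6-fold above stage 16, and ranked 215th of the 15288 genes. The RZ values were 0.0146, 0 and 0 RPKM. The value at stage 9 had no counterpart in the RZ library of the same stage. Stage 30 held 98.7% of the summed polyA+ RPKM. Of genes above 0 at both stage 16 and stage 30, 99.6% had a smaller log2 change between them.

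Hba1, another alpha globin gene, had 0.51, 0, 0, 0.160 and 0.0924 RPKM in the polyA+ oocyte and at stages 6, 9, 12 and 16, and 1.58 RPKM at stage 30. The RZ values were 0.147, 0 and 0.0601 RPKM. Its stage 16 value was under the floor and its stage 30 value was the second lowest of the 10 genes, above runx1 only. Hbg1, a beta-type globin gene by its symbol, had 1.04, 0.0294, 0.290, 0.615, 0.673 and 1.80 RPKM in the polyA+ oocyte and at stages 6, 9, 12, 16 and 30. Its RZ values were 0.505, 0.331 and 0 RPKM. It was 2.67-fold higher at stage 30 than at stage 16 and did not meet the rule. Hba3 thus stood far above the 2 globin genes next to it at stage 30.

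Hbg1 was the only one of the 10 genes to reach 1 RPKM in an oocyte library, the study's mark of a maternal transcript, and hba1 followed with 0.51 RPKM. Most of all genes met this mark, as their median was 3.36 RPKM in the polyA+ oocyte and 3.61 RPKM in the RZ oocyte. The log2 polyA+ over RZ ratio of hbg1 was 1.04 in the oocyte and -3.49 at stage 6, where the medians of maternal genes were 0.29 and -0.63. The stage 6 polyA+ value of hbg1 was under the floor, and the ratio there was -2.87 when centred on maternal genes and -1.74 with a pseudocount of 0.1 RPKM. Next to hbg1, 480 bases beyond its end and on the opposite strand, the table lists polr3k, a gene of an RNA polymerase III subunit. Polr3k had 88.7, 7.82, 29.3, 23.8, 19.1 and 33.8 RPKM in the polyA+ oocyte and at stages 6, 9, 12, 16 and 30. Both genes were lowest at stage 6 among the polyA+ libraries, as was the median of all genes (1.31 RPKM). In RZ RNA polr3k had 12.0, 8.98 and 18.0 RPKM in the oocyte and at stages 6 and 9, where hbg1 ended at 0. No strand marking is described for the libraries. The part of polr3k reads in the hbg1 values was not tested.

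The globin region spanned 650.85 kb of scaffold 9 from hbd to hbg1 and held 9 genes with globin symbols and 7 others. At stage 30, 6 of the globin genes had more than 10 RPKM and 3 (hba1, hbg1 and hbg2) had less than 2 RPKM. Hba2 had 172.4 RPKM, hbd 152.1 RPKM, hbe1 128.9 RPKM, hbz 38.8 RPKM and hba-l5 28.1 RPKM, so that hba3 was the highest with 32.9% of the globin sum. At stage 16 the same 5 genes had between 0.298 RPKM (hbz) and 0.725 RPKM (hba-l5). Like hba3, the genes hbd, hba-l5 and hbe1 were higher at stage 9 (0.688, 0.503 and 0.452 RPKM) than at stage 12 (0, 0.0799 and 0.0516 RPKM). Hba1 and hbg1 went the other way between these stages. The source of the stage 9 values was not tested. The 9 genes summed to 0.907 RPKM at stage 12, 5.99 RPKM at stage 16 and 781.0 RPKM at stage 30, when they made up 0.225% of all RPKM. Alpha-type and beta-type genes were both among those that came up, hba2 and hba3 on the one side and hbd and hbe1 on the other.

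**Figure D5:**
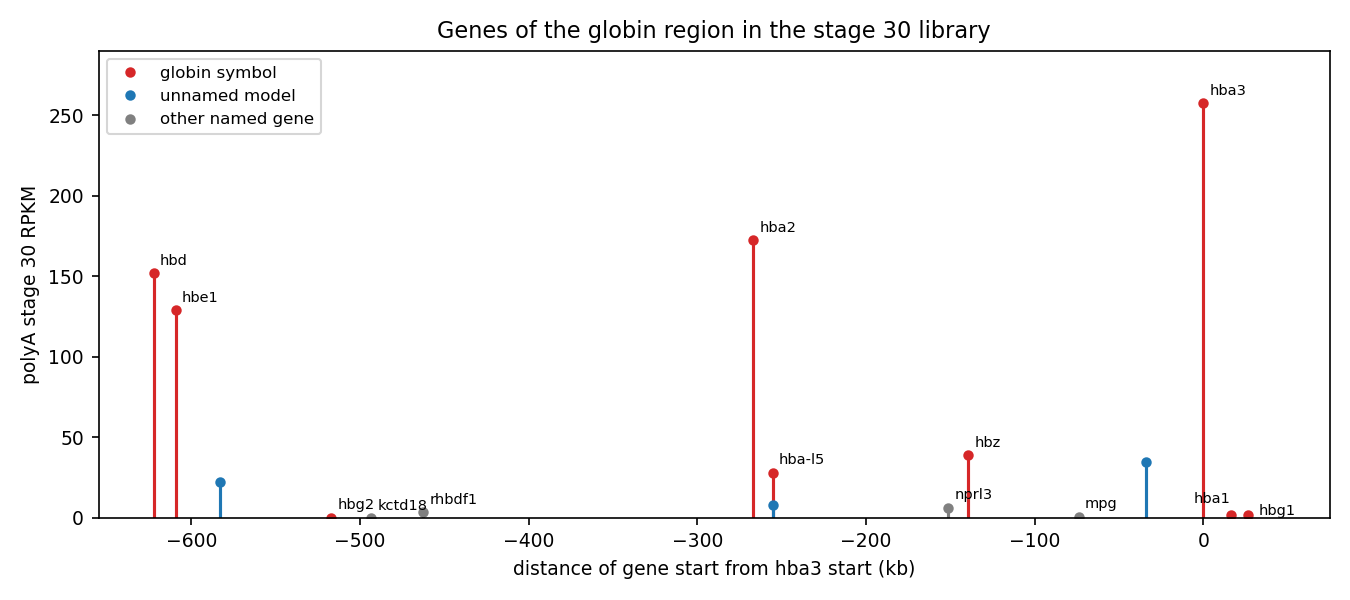
PolyA+ stage 30 RPKM of the 16 genes between hbd and hbg1 by the distance of their start from that of hba3 in kb, 1 library. Hba3 is highest at 257.3 RPKM, and hba1 and hbg1, within 30 kb of it, are under 2 RPKM.

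Some other genes listed for red cells came up from stage 16 to stage 30 and others differed little. The cells that held this RNA in the whole embryos were not examined. Of 14 listed genes of the red cell membrane and enzymes, 11 were in the table, and from stage 16 to stage 30 4 were higher by the rule and 0 lower, which is 36.4% of the list beside 7.92% of all genes higher. These were the beta spectrin gene sptb (0.199 to 3.20 RPKM), the Rh protein gene rhd (0 to 1.32 RPKM), the tropomodulin gene tmod1 (0.181 to 1.62 RPKM) and the adducin gene add2 (0.0239 to 3.41 RPKM). Slc4a1 (3.91 to 3.39 RPKM), the carbonic anhydrase gene ca2 (15.8 to 12.1 RPKM) and the membrane skeleton gene epb41 (24.6 to 23.2 RPKM) had slightly lower values at stage 30 and met the rule in neither direction. The biliverdin reductase gene blvrb was the highest of the list at stage 30, with 14.8 RPKM at stage 16 and 24.6 RPKM at stage 30. The list's median change of log2(RPKM + 1) was 0.69, against 0.08 over all genes.

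Vessel genes were set beside fli1, tal1 and lmo2. Of 31 listed vessel and endothelial genes, 30 were in the table, and from stage 16 to stage 30 7 were higher and 0 lower, which is 23.3% of the list beside 7.92% of all genes. They were the junction genes cdh5 (0.0601 to 4.39 RPKM) and pecam1 (0.193 to 1.56 RPKM), the angiopoietin receptor gene tek (0.186 to 2.35 RPKM) and its ligand gene angpt1 (0.435 to 2.29 RPKM). The others were the ETS gene erg (0.152 to 3.01 RPKM), egfl7 (1.02 to 4.92 RPKM) and the scavenger receptor gene stab2 (0.0634 to 2.89 RPKM). Fli1, at 0.905 and 3.08 RPKM, lay in the same range of levels as erg at stage 30. Earlier vessel factors had another course. Etv2, an ETS factor of the earliest vessel precursors, had 7.59, 12.2 and 7.46 RPKM at stages 12, 16 and 30, and the apelin receptor gene aplnr, the highest of the list at stage 30, had 59.7, 42.8 and 24.44 RPKM. The list's median change of log2(RPKM + 1) from stage 16 to stage 30 was 0.39.

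From the oocyte to stage 30, 8 of the 10 genes were higher by the rule, all but hba1 and hbg1, against 18.2% of all genes. The median change of log2(RPKM + 1) over this span was 2.14 for the 10 genes and 0 for all genes. From the oocyte to stage 9, 0 of the 10 genes were higher or lower by the rule, against 5.61% of all genes higher and 3.81% lower. Only hbg1 reached 1 RPKM in either of these libraries, so the other 9 could not meet it.

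The genes whose polyA+ course was most like that of each gene were found by the Euclidean distance of log2(RPKM + 1) over the 6 libraries. For gata2 they were msgn1, with 51.4, 32.6 and 3.21 RPKM at stages 12, 16 and 30, at a distance of 0.36, and slc12a3.2 at 0.61. For tal1 they were robo4, a gene of the vessel list, with 0.0237, 3.01 and 3.60 RPKM at the same stages, at 0.11, and arhgap28 at 0.12. For lmo2 they were sgk2 (2.84, 33.4 and 10.4 RPKM) at 0.46 and spag6 at 0.53. These 3 courses are thus shared by other genes nearly to the level. For runx1 they were stc1 at 0.21 and ysk4 at 0.25, and for fli1 sgca at 0.082 and rhog.2 at 0.093. For gata1 they were adipoq (0, 0.0709 and 5.27 RPKM) at 0.026 and rln3 at 0.072. For alas2 they were rgr (0.0206, 0.822 and 16.1 RPKM) at 0.13 and ass1 at 0.32. For hba3 they were ocm (0, 1.40 and 311.1 RPKM) at 0.81, followed by ttr. Hba1 was nearest to tdo2 at 0.23 and gfra2 at 0.24, and hbg1 to sh3gl3 at 0.52 and vopp1 at 0.53. With Pearson's r in place of the distance, 4 of the 10 genes shared 1 of their 2 nearest genes and 6 shared 0.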

How the data were processed

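The authors aligned the reads with BWA (version 0.6.1 in the submitters' processing notes) to the JGI assembly, discarded multiply mapping reads, and deposited RPKM values, each the mean over the non-redundant exons of a gene. Coordinates are on that assembly, written 1-based. The authors deposited no read counts in the table used, so library depth was worked out from genes whose values were whole multiples of 1 read. Ratios were taken without a pseudocount, and medians and distances on log2(RPKM + 1). All 10 symbols matched RefSeq (assembly UCB_Xtro_10.0).

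The 10 genes and the 9 lists were chosen with earlier results of these data known. The text names all 10 genes, the list genes that met the rule from stage 16 to stage 30 or otherwise the highest at stage 30, and the 2 nearest genes of each. Others (the rest of the GATA, heme, runx and globin genes, the other genes of the globin region, the 4 partner genes of stage 12 to 16, cbfb, ets1, ca2, epb41, etv2, spib, mpo, polr3k) were named after their values were seen. Alternatives were other scalings, folds, minimum RPKM, pseudocounts and a floor. Procedures were tested on simulated data. Python 3.11.15, numpy 2.4.6, pandas 2.3.3 and matplotlib 3.10.9 were used.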

Additional observations from a re-analysis of the deposited data

How the results depend on the processing

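With 1 library per stage no replicate could be left out. No paired analysis was possible because no result comes from a test. The number of the 10 genes higher from stage 16 to stage 30, 4, stayed within 1.5 times under each alternative. The other counts depended most on the minimum and the pseudocount. The share of all genes that met the rule also moved with the setting and is given beside each count. Without a minimum RPKM the count was 5 from stage 9 to 12 (14.7% of all genes) and 7 from stage 12 to 16 (22.7%). With a pseudocount of 1 it was 1, 1 and, from oocyte to stage 30, 5, beside 3.66%, 5.09% and 9.98% of all genes. Scaling to the median gave 6 from stage 12 to 16 (11.9% of all genes) and 9 from oocyte to stage 30 (24.2%), both within 1.5 times. Genes lower from stage 16 to 30, an alternative added after seeing the data, numbered 3 at 2-fold (12% of all genes) and 0 at 10-fold (1.03%). Raising the earlier library to the depth floor, also added after seeing the data, moved no count by over 1.5 times. Maternal genes among the 10 numbered 2 at 0.5 RPKM and 0 at 2 RPKM. Both marks lie under the oocyte medians of all genes, 3.36 RPKM in polyA+ and 3.61 RPKM in RZ RNA.

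For the lists from stage 16 to 30, a pseudocount of 1 gave 0 partners, 2 heme synthesis, 1 red cell, 1 vessel, 3 myeloid and 1 RUNX or ETS gene. The share of all genes was then 3.21%. Scaling to summed RPKM gave 1 partner and 2 heme synthesis genes, beside 4.53% of all genes. At 10-fold there were 2 heme synthesis, 4 vessel and 3 myeloid genes, beside 3.06% of all genes. At 2-fold there were 4 partners and 6 iron genes, beside 19.5% of all genes. Among the changes of single genes from stage 16 to 30, that of tal1 was -0.073 with summed RPKM scaling. Pseudocounts of 0.1 and 1 gave 5.09 and 2.56 for gata1 and 3.12 and 1.24 for hba1, and a pseudocount of 1 gave 3.29 for alas2, 1.10 for fli1 and 0.74 for hbg1. Depth limits values under the floor, among them gata1 and hba1 at stage 16.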

Other observations

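Genes listed for other blood cells were present beside those listed for red cells. Of 18 listed myeloid and thrombocyte genes, 14 were in the table, and from stage 16 to stage 30 6 were higher by the 4-fold and 1 RPKM rule and 0 lower, beside 7.92% of all genes. They were the macrophage and granulocyte factor genes spi1 (0.271 to 1.80 RPKM) and cebpe (0.323 to 1.47 RPKM), the matrix protease genes mmp7 (0.398 to 19.9 RPKM) and mmp9 (0.0925 to 2.71 RPKM), the leukocyte plastin gene lcp1 (2.63 to 16.4 RPKM) and f13a1 (0.161 to 6.88 RPKM). Mpo, the myeloperoxidase gene, had 0.0869, 35.0 and 54.9 RPKM at stages 12, 16 and 30, and so was high at stage 16, when gata1 was under the floor. The ETS gene spib had 1.60, 8.51 and 2.44 RPKM at the same stages, with its highest value at stage 16 as for lmo2 and runx1.

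Of 13 listed genes of mitochondrial transport and iron handling, 11 were in the table, and 3 (27.3%, beside 7.92% of all genes) were higher from stage 16 to stage 30. They were the mitoferrin gene slc25a37 (0.380 to 4.61 RPKM), fth1, by its symbol a ferritin heavy chain gene (1.40 to 27.2 RPKM), and the iron exporter gene slc40a1 (2.54 to 17.7 RPKM). Ftmt, by its symbol a mitochondrial ferritin gene, was the highest of the list, with 664.7 RPKM at stage 16 and 550.7 RPKM at stage 30. In the polyA+ oocyte it had 967.6 RPKM, where fth1 was listed at 0. Which of them is the main ferritin heavy chain gene was not examined. Slc25a37 also had maternal RNA, with 6.01 RPKM in the polyA+ oocyte and 21.2 RPKM in the RZ oocyte.

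Of the 11 other RUNX and ETS genes, erg and elk3 (0.257 to 9.00 RPKM) were higher at stage 30 than at stage 16 and 0 were lower, a count of 2 (18.2%) beside 7.92% of all genes, and gabpa was the highest at stage 30 with 15.2 RPKM. In the globin region, 3 unnamed gene models had 35.0, 21.9 and 7.74 RPKM at stage 30 and no more than 0.209 RPKM at stage 16. The first starts at -33.85 kb from the start of hba3. The third overlaps hba-l5 on the same strand, so it need not be a separate gene, and reads shared with hba-l5 were not examined. The other named genes of the region had other courses. Nprl3, within which hbz lies, had 8.83, 3.67 and 6.30 RPKM in the polyA+ oocyte, at stage 16 and at stage 30. In the same libraries mpg had 23.3, 0.413 and 0.794 RPKM and rhbdf1 1.09, 1.21 and 3.31 RPKM. Kctd18 was listed at 0 in every library.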
